A study of Populus ussuriensis with 9 samples.

Results

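The circadian clock genes described here are 7 poplar genes: the pair LHY1 and LHY2, the PRR9 pair, the PRR7 pair and TOC1. They were chosen by their locus IDs from a list that gives these names, and all 7 were found among the 29764 loci of the table. LHY1 is Potri.002G180800.v3.0 and LHY2 is Potri.014G106800.v3.0, numbered in the order of that list. The PRR9 copies are Potri.002G179800.v3.0 on chromosome 2 and Potri.014G106000.v3.0 on chromosome 14. The PRR7 copies are Potri.010G215200.v3.0 on chromosome 10 and Potri.008G046200.v3.0 on chromosome 8, and TOC1 is Potri.015G061900.v3.0 on chromosome 15. Chromosomes were read from the IDs. The table itself holds IDs without names.

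RNA-seq was done on fully expanded leaf tissue from the poplar Populus ussuriensis. OE18 is a transgenic line with a high level of LbDREB6 overexpression, OE14 a line with a moderate level, and WT the wild type plant, with 3 libraries each. LbDREB6 is named as a DREB protein, a family of transcription factors that bind the dehydration-responsive element. Plants of all groups were 6 months old, came from a greenhouse and had water withheld, for 2 weeks according to the sample descriptions and for 1 week according to the treatment protocol. Each level of overexpression is 1 line, so level and line cannot be told apart, and the promoter of the transgene is not given in the sources used here. The level of LbDREB6 and the leaf identity of the samples were not checked, and no watered plants were analysed here.

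The plant clock is a set of transcription factors that repress each other in turn through the day. In Arabidopsis, LHY is a MYB-like factor that peaks around dawn and represses evening genes such as TOC1. The pseudo-response regulators PRR9 and PRR7 follow during the morning and around midday and repress LHY, and TOC1, the founding member of the same family, peaks around dusk and represses the morning genes. In Arabidopsis PRR9 and PRR7, together with their relative PRR5, also hold down the DREB1/CBF stress genes, and in hybrid aspen LHY is known for its part in growth and cold hardiness. Poplars carry many of their genes as pairs that date from an old genome duplication, and chromosomes 2 and 14, like 8 and 10, are such partners. The labels give no time of day for the harvest of any group, so a difference in harvest time and a difference in clock gene levels at the same hour cannot be told apart here.

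The recovered depth was 10988010 to 16221919 reads per library. Values are FPKM, fragments per kilobase of gene and per library total, so levels can be compared between genes. All 7 genes passed the filter on low values and rested on 201 to 17115 reads per library, over lengths of 3315 to 4813 bases. The spread within a group was 0.592% to 9.47% of the mean. The order of levels was LHY1, LHY2, PRR9 on chromosome 14, PRR9 on chromosome 2, TOC1, PRR7 on chromosome 10 and PRR7 on chromosome 8, from high to low. It was the same in all 9 libraries, and within each of the 3 groups no neighbours in this order overlapped. The LHY pair thus had the highest levels in every library, with LHY1 at rank 307 in OE18, 175 in OE14 and 189 in WT by mean FPKM among the 22848 genes tested.

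**Figure D1:**
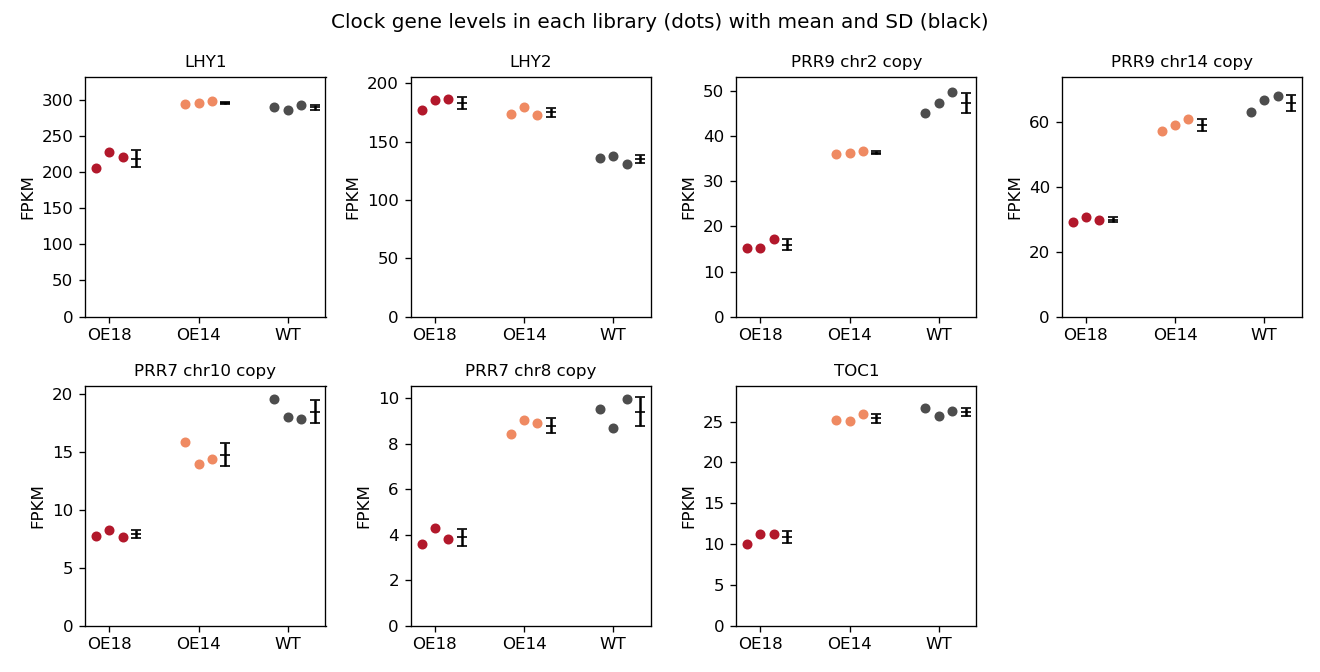
FPKM of the 7 clock genes (y axis, from 0, a scale for each gene) in each library of OE18, OE14 and WT (dots, 3 per group), with the group mean and SD in black. The OE18 libraries lie below both other groups for LHY1, both PRR9 copies, both PRR7 copies and TOC1, and the OE18 and OE14 libraries lie above WT for LHY2.

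In OE18, the line with high overexpression, the day and evening genes were far below WT while the morning pair changed less and in opposite directions on the deposited FPKM scale. The fall was to 33.6% and 45.3% of the WT mean for the PRR9 copies, to 42.7% and 41.4% for the PRR7 copies and to 41.4% for TOC1. LHY1 fell to 75.4% of its WT mean and LHY2 rose to 136% of its own. After centring on gene length LHY2 had a log2 fold change of 0.77, as large in size as the -0.76 of PRR7 on chromosome 8 and the -0.79 of PRR9 on chromosome 14, and LHY1 had -0.077 and was not called. In OE14 the means were 76.7% to 130% of WT, and TOC1 stood at 96.9%. The samples are whole leaf tissue, in which fewer cells of a type and less RNA per cell cannot be told apart.

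By limma with Benjamini-Hochberg adjustment over all genes tested, 6 of the 7 genes were lower and 1 was higher in OE18 than in WT at an adjusted p under 0.05. Over all 22848 genes tested 79.5% were called, 37.9% lower and 41.6% higher, so being called is by itself ordinary in this comparison. The size was less common. A fall of 2-fold or more was called for 5 of the 7 genes, against 9.33% of the genes tested, and a rise of 2-fold or more for none of the 7, against 18.8%. The median log2 fold change, taken on log2(FPKM + 1), was -1.12 for the 7 genes and 0.03 for all genes tested. The libraries of OE18 and WT did not overlap in any of the 7 genes, as in 80.3% of all genes. When each library was centred on genes of like length, the 6 genes called lower became 5, without LHY1. Of the 22848 genes tested, 9153 were then called lower and 9102 higher. The 5 lower by 2-fold or more became 3 (PRR9 on chromosome 2, PRR7 on chromosome 10 and TOC1). The share of all genes at that size is not given with this centring.

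Gene length moved with these results. All 7 genes are long, and in OE18 long genes as a whole lay below WT. With all tested genes divided by length into 10 classes of equal size, the longest class, from 3406 bases upward, had a median log2 fold change of -0.34 in OE18 against WT, and the next class, from 2762 to 3405 bases, had -0.09. LHY1, LHY2, both PRR9 copies and PRR7 on chromosome 8 are in the longest class, and TOC1 and PRR7 on chromosome 10 are in the next. In OE18 against WT 58.4% of the longest class were called lower and 24.8% higher. In the next class 45.0% were called lower and 36.1% higher, so a call as lower was more common among genes of like length than over all genes. The 4 PRR copies and TOC1 lay well below the median of their own class, LHY1 lay close to it, and LHY2 lay above. After centring on length the log2 fold change of OE18 against WT was -0.79 to -1.19 for the PRR9 copies, -0.76 to -1.04 for the PRR7 copies and -1.11 for TOC1, all still called. What produced the length trend was not tested.

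**Figure D2:**
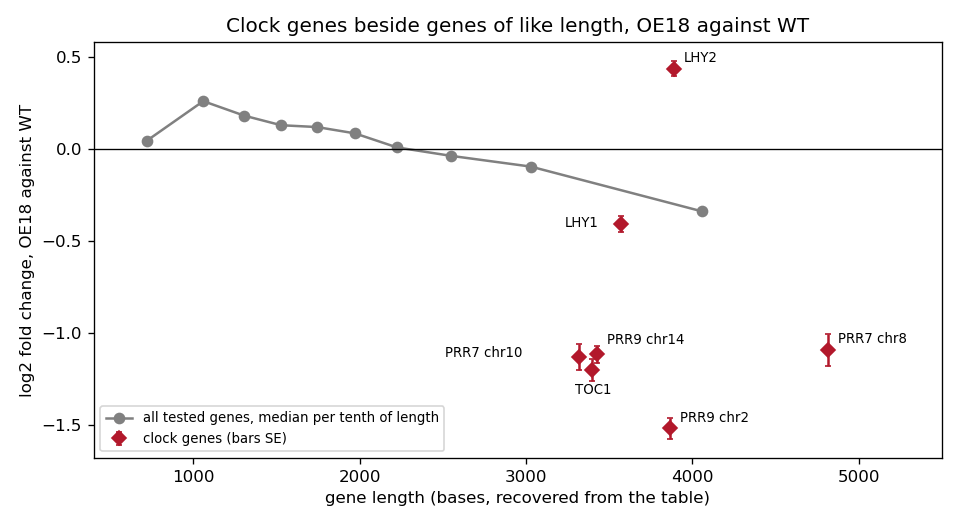
Log2 fold change of OE18 against WT (y axis, log2 of FPKM + 1) against gene length in bases (x axis), for the 7 clock genes (diamonds, bars SE) and for all tested genes as the median of each of 10 length classes (grey line). The grey line reaches -0.34 in the longest class, near LHY1 at -0.41, while the PRR copies and TOC1 lie between -1.09 and -1.52.

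The morning gene LHY1 had 205, 228 and 221 FPKM in the OE18 libraries, 294, 295 and 298 FPKM in the OE14 libraries, and 290, 286 and 293 FPKM in the WT libraries. The OE18 libraries were all lower than the others, and the OE14 libraries lay just above WT without overlap. LHY1 fell in OE18, with 218 ± 11.8 FPKM in OE18 and 289 ± 3.61 FPKM in WT (SD, n = 3 each) which is -0.41 as a log2 fold change (SE 0.042, limma adjusted p = 7.3e-07). This call was lost after centring on gene length, where the value was -0.077 (limma adjusted p = 0.0505). In OE14 LHY1 had 296 ± 1.75 FPKM (SD, n = 3). The difference from WT, 0.031 on the log2 scale, was not called (limma adjusted p = 0.56), with a 95% interval of -0.060 to 0.12. It turned to -0.039 under median-of-ratios scaling.

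LHY2, the other copy, went the other way. It had 178, 186 and 187 FPKM in the OE18 libraries, 174, 180 and 173 FPKM in the OE14 libraries, and 136, 138 and 131 FPKM in the WT libraries. All transgenic libraries were above all WT libraries, and the libraries of the 2 lines overlapped each other. LHY2 rose in both lines, with log2 fold changes from WT of 0.44 in OE18 (SE 0.040, limma adjusted p = 1.7e-07) and 0.37 in OE14 (SE 0.040, limma adjusted p = 3.5e-06). The OE18 value was 0.77 after centring on length and 0.23 after quantile normalization, in which all libraries are made to share 1 distribution of values, and it was called in both cases. Between the lines, LHY2 had a log2 fold change of 0.063 in OE18 against OE14 that was not called (limma adjusted p = 0.16, 95% interval -0.022 to 0.15). That small difference rests on the scaling, since it was -0.12 and called after quantile normalization (limma adjusted p = 0.022), -0.022 after rescaling to equal sums and 0.35 and called after centring on length (limma adjusted p = 3.5e-06). In this comparison the median over all genes was itself -0.11 after quantile normalization, against -0.01 without it, so LHY2 then lay near the median gene.

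The 2 copies of LHY had a different balance in each group. LHY1 exceeded LHY2 by 1.16 to 1.23 times in OE18 libraries, 1.64 to 1.72 times in OE14 libraries and 2.07 to 2.23 times in WT libraries, with no overlap between any groups. In OE18 one copy was lower and the other higher than in WT, while in OE14 LHY2 was higher and LHY1 was not called. On the deposited scale the summed LHY level was 402 ± 16.5 FPKM in OE18, 471 ± 3.73 FPKM in OE14 and 424 ± 1.247 FPKM in WT (SD, n = 3 each). This puts OE18 at 94.6% and OE14 at 111% of WT, with no overlap between groups. After centring on gene length the log2 fold changes of OE18 against WT were -0.077 for LHY1 and 0.77 for LHY2. Those of OE18 against OE14 were -0.15 and 0.35. The place of OE18 as the lowest sum thus rests on the deposited scale. How the counting treated reads that match both copies of a pair is not given in the sources used here, so the split between copies is less certain than their sum. The same holds for the PRR9 and PRR7 pairs.

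PRR9 is the earliest of the pseudo-response regulators in Arabidopsis. The copy on chromosome 2 had 15.2, 15.3 and 17.3 FPKM in the OE18 libraries, 36.2, 36.3 and 36.7 FPKM in the OE14 libraries, and 45.2, 47.4 and 49.8 FPKM in the WT libraries. The groups stood in 3 separate steps, OE18 lowest and WT highest. Its log2 fold change of -1.52 in OE18 against WT (SE 0.06, limma adjusted p = 1.8e-11) was the largest among the 7 genes, and 3.24% of the genes tested had a value as low or lower. In OE14 it fell by 0.37 on the log2 scale (SE 0.06, limma adjusted p = 0.00013).

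The PRR9 copy on chromosome 14 had 29.1, 30.8 and 29.7 FPKM in the OE18 libraries, 57.2, 59.1 and 60.8 FPKM in the OE14 libraries, and 63.1, 66.7 and 67.9 FPKM in the WT libraries. It showed the same 3 steps without overlap, though the step between OE14 and WT was narrow. The log2 fold change from WT was -1.12 in OE18 (SE 0.05, limma adjusted p = 4.4e-11) and -0.16 in OE14 (SE 0.05, limma adjusted p = 0.013). The OE14 call depended on single libraries: it was lost without the WT library of the third column (-0.13, limma adjusted p = 0.054) and without OE14 replicate 1 (-0.13, limma adjusted p = 0.052). The chromosome 2 copy had 0.496 to 0.584 of the level of the chromosome 14 copy in OE18 libraries, 0.604 to 0.632 in OE14 libraries and 0.712 to 0.733 in WT libraries, again without overlap.

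PRR7 acts around midday and is the partner of PRR9 in repressing LHY in Arabidopsis. The copy on chromosome 10 had 7.74, 8.26 and 7.60 FPKM in the OE18 libraries, 15.8, 13.97 and 14.4 FPKM in the OE14 libraries, and 19.6, 17.9 and 17.8 FPKM in the WT libraries. All 3 groups were apart, in the order seen for PRR9. The log2 fold change from WT was -1.13 in OE18 (SE 0.07, limma adjusted p = 2.9e-09) and -0.30 in OE14 (SE 0.07, limma adjusted p = 0.0025).

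The PRR7 copy on chromosome 8, the least abundant of the 7 genes, had 3.57, 4.29 and 3.80 FPKM in the OE18 libraries, 8.41, 9.03 and 8.92 FPKM in the OE14 libraries, and 9.54, 8.71 and 9.94 FPKM in the WT libraries. Only the OE18 libraries stood apart, and those of OE14 and WT overlapped. It fell in OE18, with a log2 fold change from WT of -1.09 (SE 0.09, limma adjusted p = 4.0e-08). In OE14 the log2 fold change was -0.09 and not called (limma adjusted p = 0.43), with a 95% interval of -0.27 to 0.10. The ratio of the chromosome 10 to the chromosome 8 copy was 1.93 to 2.17 in OE18 libraries, 1.55 to 1.88 in OE14 libraries and 1.79 to 2.06 in WT libraries. OE18 and OE14 did not overlap, and each overlapped WT. The log2 ratio differed by 0.28 between OE18 and OE14, against 0.43 after quantile normalization and 0.079 after centring on length. Between OE18 and WT it differed by 0.049, against 0.22 after quantile normalization and -0.24 after centring on length.

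TOC1, the evening gene, had 10.03, 11.3 and 11.2 FPKM in the OE18 libraries, 25.2, 25.1 and 26.0 FPKM in the OE14 libraries, and 26.7, 25.7 and 26.3 FPKM in the WT libraries. OE18 stood far below, and OE14 and WT overlapped. TOC1 fell in OE18, with a log2 fold change from WT of -1.20 (SE 0.06, limma adjusted p = 2.1e-10), and 6.09% of the genes tested had a value as low or lower. In OE14 it had a log2 fold change of -0.04 that was not called (limma adjusted p = 0.56), with a 95% interval of -0.17 to 0.08.

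**Figure D3:**
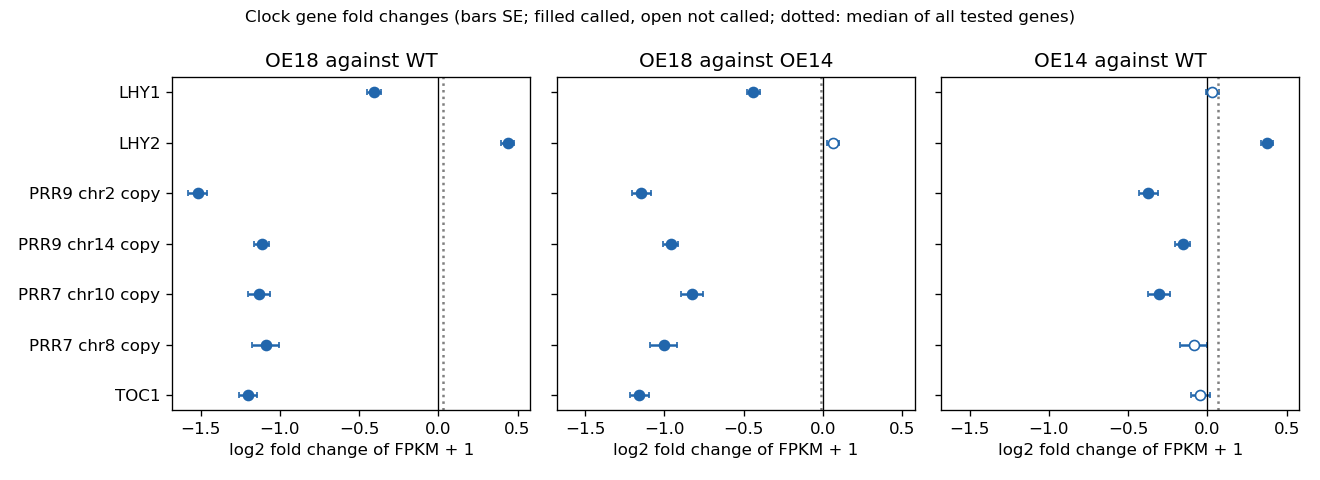
Log2 fold change of FPKM + 1 (x axis) of the 7 clock genes (rows) in OE18 against WT, OE18 against OE14 and OE14 against WT. Filled points were called at a limma adjusted p under 0.05 and open points were not, bars are SE, and the dotted line is the median of all tested genes, 0.03, -0.01 and 0.07 in the 3 panels. In OE14 against WT no value goes beyond -0.37 or 0.37.

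In OE14 against WT as a whole, 3 of the 7 genes were called lower, 1 was called higher and 3 were not called, against 20.9% lower, 31.9% higher and 52.8% called in all among the genes tested. None of the 7 differed by 2-fold or more, against 1.93% of all genes lower and 3.55% higher by that much. The share of all calls that were higher, 60.4%, was 51.1% after quantile normalization and 51.5% after median-of-ratios scaling. The median log2 fold change of the 7 genes was -0.09, against 0.07 for all genes tested. The genes called lower were both PRR9 copies and the chromosome 10 copy of PRR7, and the gene called higher was LHY2. OE14 and WT libraries were apart in 5 of the 7 genes, as in 60.4% of all genes.

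The direct comparison of OE18 with OE14 called 6 of the 7 genes as lower in OE18 and none as higher, against 38.8% lower, 38.8% higher and 77.7% called in all among the genes tested. Among genes of like length the shares were 55.1% lower and 24.8% higher in the longest class, and 46.6% lower and 32.9% higher in the next. LHY2 is the gene that was not called, and the only one of the 7 whose libraries overlapped between the lines. Groups were apart in 79.1% of all genes. A fall of 2-fold or more was called for 3 of the 7, against 9.39% of all genes, and a rise of that size for none, against 16.2%. The log2 fold change was -1.16 for TOC1 (SE 0.06, limma adjusted p = 3.5e-10), -1.14 and -0.96 for the PRR9 copies on chromosomes 2 and 14, -0.83 and -1.004 for the PRR7 copies on chromosomes 10 and 8, and -0.44 for LHY1. The median was -0.96 for the 7 genes and -0.01 for all genes tested. Long genes lay lower in this comparison too, with a median of -0.28 in the longest class and -0.14 in the next. With centring on gene length TOC1 had -1.02. The PRR9 copies on chromosomes 2 and 14 then had -0.85 and -0.67, and the PRR7 copies on chromosomes 10 and 8 had -0.69 and -0.71. All of these were still called, but only TOC1 was still lower by 2-fold or more. Of the 22848 genes tested, 8865 were called lower and 8949 higher with this centring. LHY1 had -0.15 after this centring and was still called (limma adjusted p = 0.0014), and LHY2 was called higher. Both comparisons with WT use the same WT libraries, while this one does not use them. A moderated F test over the 3 genotypes called all 7 genes, as it did 87.9% of the genes tested.

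The ratio of morning to evening transcripts put these levels on 1 scale within each library. The summed LHY pair exceeded TOC1 by 36.4 to 38.1 times in OE18 libraries, 18.1 to 19.0 times in OE14 libraries and 16.0 to 16.5 times in WT libraries. The groups did not overlap, and OE18 stood far from the other two. On the log2 scale the ratio was 5.21 ± 0.037 in OE18, 4.21 ± 0.034 in OE14 and 4.02 ± 0.025 in WT (SD, n = 3 each), a difference of 1.19 between OE18 and WT and of 0.20 between OE14 and WT. On the deposited scale the summed LHY level in OE18 was 94.6% and the TOC1 level 41.4% of WT. After centring on gene length the difference in the log2 ratio between OE18 and WT was 1.43, with LHY1 at -0.077, LHY2 at 0.77 and TOC1 at -1.11 as log2 fold changes. No p is given for such ratios, which are only a description of genes chosen with results known.

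The ratio of the LHY pair to the PRR9 pair went the same way, with 8.63 to 8.98 in OE18 libraries, 4.82 to 5.01 in OE14 libraries and 3.60 to 3.93 in WT libraries. The ratio of the LHY pair to the PRR7 pair was 33.0 to 35.8 in OE18 libraries, 19.3 to 20.7 in OE14 libraries and 14.6 to 15.9 in WT libraries. The summed PRR pairs, unlike the single PRR9 copies, had ratios to TOC1 in OE18 that overlapped those in WT. In OE18 TOC1 stood at 41.4% of WT, PRR9 on chromosome 2 at 33.6% and PRR9 on chromosome 14 at 45.3%. On the deposited scale the PRR9 copies thus parted from TOC1 in opposite directions, which offset each other in the sum. After centring on gene length the chromosome 2 copy lay close to TOC1, with log2 fold changes of -1.19 and -1.11. The chromosome 14 copy then had -0.79. The PRR9 pair exceeded TOC1 by 4.08 to 4.42 times in OE18 libraries and 4.06 to 4.475 times in WT libraries, which overlapped. OE14 had 3.71 to 3.81 and lay below both. The ratio of the PRR7 pair to TOC1 was 1.02 to 1.13 in OE18 libraries, 0.897 to 0.963 in OE14 libraries and 1.04 to 1.09 in WT libraries. After centring on gene length, the log2 ratio of the PRR9 pair to TOC1 was 0.21 higher in OE18 than in WT, against a difference of -0.032 without it. In OE14 both PRR pairs were lower relative to TOC1 than in WT, while TOC1 itself was not called.

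**Figure D4:**
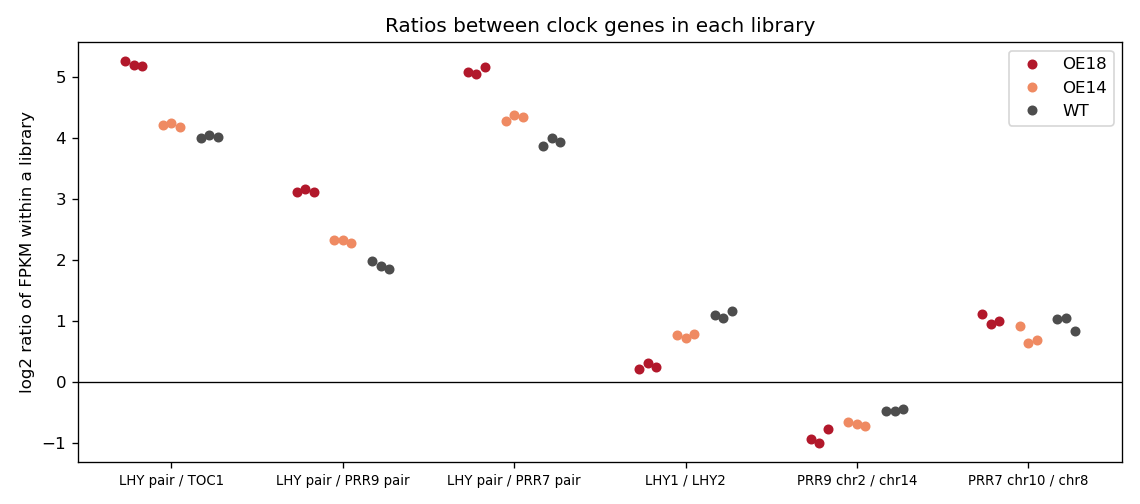
Log2 ratio of FPKM between clock genes within each library (y axis), for OE18, OE14 and WT (3 dots each). In the first 3 ratios, of the summed LHY pair to TOC1, to the PRR9 pair and to the PRR7 pair, OE18 is highest and WT lowest. In the ratios of LHY1 to LHY2 and of the PRR9 copies OE18 is lowest and WT highest, and the ratio of the PRR7 copies overlaps between OE18 and WT and between OE14 and WT.

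Each LHY copy has a PRR9 copy close by in the order of locus numbers, on chromosome 2 and again on chromosome 14. On chromosome 2, 7 loci lie between PRR9 and LHY1 in the table and 6 were tested: in OE18 against WT 1 was called higher and 2 lower, with log2 fold changes from -0.48 to 2.89 and a median of -0.19. On chromosome 14, all 6 loci between PRR9 and LHY2 were tested: in OE18 against WT 1 was called higher and 4 lower, from -1.62 to 0.74 with a median of -0.74. Over all genes tested the shares in this comparison were 41.6% higher and 37.9% lower, with a median of 0.03. In OE14 against WT the counts were 3 higher and 1 lower on chromosome 2, and 2 higher and 2 lower on chromosome 14, against 31.9% higher and 20.9% lower over all genes. In OE18 against OE14, 1 was called higher and 3 lower on chromosome 2, with a median of -0.60. On chromosome 14 none was called higher and 5 of 6 lower, with a median of -0.89, against 38.8% of all genes in each direction and a median of -0.01. On chromosome 14, PRR9 at one end was lower in OE18 and LHY2 at the other end was higher. These loci carry no gene names here, and whether Populus ussuriensis has the same gene order was not examined.

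**Figure D5:**
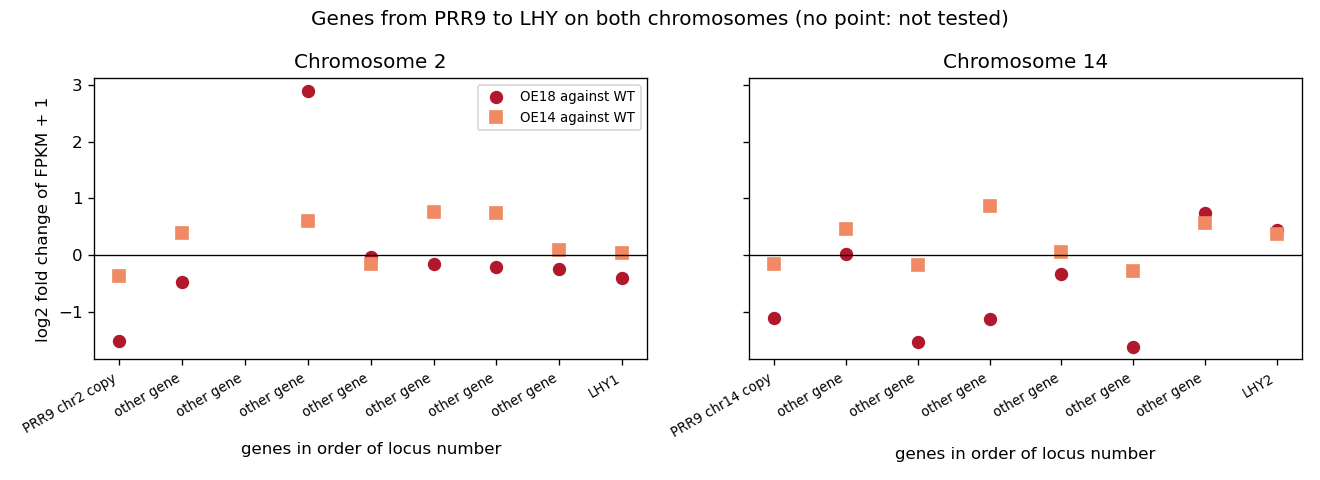
Log2 fold change of FPKM + 1 (y axis) of the genes from PRR9 to LHY in order of locus number (x axis), on chromosome 2 and chromosome 14, for OE18 against WT (circles) and OE14 against WT (squares). One locus on chromosome 2 was not tested and has no point. Values on either side of 0 stand next to each other on both chromosomes.

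Among 15037 other tested genes with a mean of 5 FPKM or more, the one whose pattern over the 9 libraries was most like TOC1 was Potri.006G203000.v3.0, with a Pearson's r of 0.999 on log2(FPKM + 1). It had 19.98, 22.7 and 22.4 FPKM in the OE18 libraries, 69.9, 73.1 and 72.3 FPKM in the OE14 libraries, and 74.8, 73.9 and 76.5 FPKM in the WT libraries. OE18 was far below the other groups, with a log2 fold change from WT of -1.75, a pattern that follows from the choice by likeness to TOC1. The gene most like the summed LHY pair was Potri.001G027400.v3.0, with an r of 0.990. It had 36.2, 40.7 and 40.1 FPKM in the OE18 libraries, 58.3, 60.5 and 60.5 FPKM in the OE14 libraries, and 45.6, 44.2 and 46.4 FPKM in the WT libraries. By the same kind of choice it shared the order of the summed pair on the deposited scale, highest in OE14 and lowest in OE18. Both values describe 9 libraries in 3 groups, so r mainly reflects the 3 group means.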

How the data were processed

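The deposited table holds FPKM values from the authors for 9 libraries. Bowtie2 2.2.3 and HISAT2 2.1.0 appear in the submitters' processing notes. Counting, genome build and annotation: not given in the sources used here. The 6 transgenic columns carry the sample titles, and the other 3 were taken as WT by elimination. The labels call the libraries biological replicates. The p-values rest on the spread between them, which limma pools in part with that of all tested genes. No spread between lines enters, since each level is 1 line. Whole reads and gene lengths were recovered from the FPKM steps (29764 of 29764 genes within 1e-06 reads). Genes with 1 FPKM or more in at least 3 libraries (22848) were tested two-sided on log2(FPKM + 1), which understates the change of low genes, by limma 3.58.1 (R 4.3.3) with a variance trend, in 1 fit over all 9 libraries. Benjamini-Hochberg adjusted p-values under 0.05 were taken as calls. The scripts were tested on simulated data. Those made for the limma fit held no length trend, so that test does not bear on the trend. The 7 genes are described in full, together with the single genes most like the summed LHY pair and TOC1 by Pearson's r. Members and lists were chosen with earlier results of these data known. A list of further clock genes and leaf markers, written by description, was not applied, since the IDs carry no descriptions here. No gene sequence was used here. The centring on gene length (10 classes of tested genes) was added after the genes were seen to be long. Other alternatives were scalings, pseudocounts of 0.1 and 0.5, filters, voom on the recovered reads, a fit on 2 groups, a replicate block and leaving out each library.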

Additional observations from a re-analysis of the deposited data

Results flagged for a closer look

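The effects of the 2 lines against WT differed for 6 of the 7 clock genes, by the direct test of OE18 against OE14 in the limma fit. On the log2 scale OE18 differed from OE14 by -0.44 for LHY1, -1.14 for the PRR9 copy on chromosome 2, -0.96 for the PRR9 copy on chromosome 14, -0.83 for the PRR7 copy on chromosome 10, -1.004 for the PRR7 copy on chromosome 8 and -1.16 for TOC1. All OE18 libraries lay below all OE14 libraries for each of these genes. Such a difference was called for 77.7% of all genes tested.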

How the results depend on the processing

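Of 406 values of single clock genes recomputed under the alternatives, 399 kept their direction and their side of the threshold. The exceptions were the following. LHY2 in OE18 against OE14 was -0.12 after quantile normalization, -0.022 after TPM rescaling and 0.35 after centring on gene length, where 1 clock gene was then called higher. LHY1 was -0.039 in OE14 against WT under median-of-ratios scaling and -0.077 in OE18 against WT after centring on length. The PRR9 copy on chromosome 14 ranged from -0.19 to -0.13 in OE14 against WT when each library was left out in turn, and lost its call in 2 of these fits. The causes were not tested.

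Centring on length left 3 clock genes lower by 2-fold or more in OE18 than in WT. The share of all genes at that size is not given with this centring. With a mean of 5 FPKM or more, where fewer genes were tested, 5933 genes were called higher in OE18 against WT and 5536 in OE18 against OE14. For the log2 ratio of the LHY pair to TOC1, quantile normalization gave 1.15 for OE18 minus WT, 0.89 for OE18 minus OE14 and 0.26 for OE14 minus WT, and centring on length gave 1.43, 1.14 and 0.28. The log2 ratio of LHY1 to LHY2 under quantile normalization was -0.70, -0.43 and -0.28 in the same order. That of the PRR9 copies was -0.26 for OE14 minus WT under quantile normalization. That of the PRR7 copies was 0.22 for OE18 minus WT and 0.43 for OE18 minus OE14 under quantile normalization, and -0.24 and 0.079 after centring on length. The cause was not tested.

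Samples with the same replicate number did not deviate together in OE18 and OE14 (correlations of 0.0997, 0.061 and -0.015 across genes), so the numbers were not taken to pair them. With a replicate block in the fit of OE18 against OE14, 17738 genes were called, where 17745 were called without it, and no clock gene changed its call. No paired analysis was possible for the comparisons with WT because the WT columns are not tied to numbered samples.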
